A study of Mus musculus with 45 samples.

Results

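UNC0638, a small molecule that inhibits the histone methyltransferases EHMT1 and EHMT2, was compared with its solvent DMSO in wild-type (WT) J1 mouse embryonic stem cells (mESCs) after 48 h. The comparison rests on 6 of the 45 libraries of the series, 3 treated with UNC0638 and 3 with DMSO, chosen by their sample labels. The rest come from degron-tagged cells and from Dppa4 knockout (KO) mESCs. The 6 KO libraries had the same agents for the same 48 h, and their levels serve here for a comparison of the effect. In the fit without pairing they were fitted together with the WT libraries. They therefore share in the estimate of spread behind the unpaired SEs, intervals and p-values given for WT cells. The WT line carried no degron and no reporter, and the labels give no dose of the inhibitor. The labels speak of 3 clones per line but do not say which library comes from which clone, so the replicate numbers were treated as a possible pairing and not as a known one. Where numbers do not stand for separate clones, the p-values measure only the spread between these libraries. The cells grew with serum and leukemia inhibitory factor on mitotically inactive mouse embryonic fibroblasts, and the RNA was polyadenylated bulk RNA.

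EHMT1 and EHMT2 (also called GLP and G9a) act as a heterodimer that places dimethylation on lysine 9 of histone H3 (H3K9me2), a mark of silent chromatin. In mESC cultures a small share of cells spontaneously switches on genes of the 2-cell embryo, such as the Zscan4 family, together with the endogenous retrovirus MERVL and its long terminal repeat MT2_Mm, and these cells are called 2-cell-like cells (2CLCs). DPPA2 and DPPA4 are chromatin proteins upstream of the transcription factor DUX, which activates this programme. An inhibitor acts on the activity of the enzymes, so their transcript levels are no check of it, and H3K9me2 was not measured in these libraries.

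The libraries held between 8399885 and 12710949 gene reads, and the values below are counts divided by the authors' size factors (normalized counts). The mESC markers Pou5f1, Sox2, Nanog, Zfp42 and Esrrb lay between 4424 and 12960 normalized counts in all 6 WT libraries. Fibroblast markers of the feeder layer did not all go together. Every WT library had reads of Col1a1 (323 to 611 normalized counts), Col1a2 (469 to 694), Col3a1 (73.1 to 161), Thy1 (703 to 1055) and Postn (19.8 to 121). Dcn lay between 0 and 30.8, and Lum was at 0 in 5 libraries and at 2.62 in the sixth. The 27 fibroblast genes summed to 17840, 24118 and 17147 in DMSO and to 16977, 22107 and 14994 in UNC0638, and these ranges overlapped (exact permutation test, two-sided, p = 0.5). Of the primitive endoderm markers, Gata4 lay between 16.7 and 61.5, Gata6 between 3.69 and 20.6 and Sox17 between 7.04 and 14.4 normalized counts. Dab2 lay between 38.5 and 108, within the range of Postn. The listed primitive endoderm genes summed to 9197, 10578 and 7233 in DMSO and 7819, 9118 and 7190 in UNC0638. The share of gene reads from the mitochondrial genome was 2.39%, 2.43% and 2.24% in DMSO and 2.95%, 2.69% and 2.57% in UNC0638. It was higher in all 3 treated libraries (exact permutation test, two-sided, p = 0.1, the smallest that 3 against 3 allows), and its part in the results below was not tested. In these bulk libraries, more cells of a kind and more RNA per cell cannot be told apart.

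No gene passed the test in the fit without pairing. In limma with 4 group means over 12 libraries, 0 of 17258 tested genes had an adjusted p under 0.05 together with a 2-fold difference (0% called in either direction), and the lowest adjusted p was 0.126, for Crxos. At an unadjusted p under 0.05 there were 1504 genes (8.71%), 900 of them higher with UNC0638 (5.21% of genes tested) and 604 lower (3.5%). With the 6 WT libraries alone, limma gave 2170 of 16396 genes at that level and called 0. Over the 12 libraries edgeR's quasi-likelihood test called 0 genes as well, with 1410 at an unadjusted p under 0.05. DESeq2 called 14 over the same libraries, of which 13 were higher, with 1606 at an unadjusted p under 0.05. The 13 were Nlrp14, Riok1, Ptprj, Gsta3, Cd38, Nlrp4f, Pkp2, Spink10, Pdha2, Nxf3, Crxos, D730003K21Rik and Gm9732, and the chemokine gene Ccl6 was the lower gene. Sizes were less even than p-values. A log2 fold change of at least 1 was seen for 1004 genes (5.82%), against 230 genes (1.33%) at -1 or below. Each treated library also had more gene reads than the DMSO library of its number (10763343, 10362834 and 12662243 against 8920232, 8399885 and 12653792). It had more genes with a read as well (23083, 22825 and 24690 against 19571, 21039 and 23076). The part of depth in the unequal counts was not tested. Omission of single libraries moved the count of calls little. Without DMSO replicate 3 the call was Crxos, and without UNC0638 replicate 3 it was Riok1, 1 gene in each case.

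Pairing libraries of the same number changed this picture. With the replicate number as a term and the 6 WT libraries alone, limma called 187 of 16396 genes (1.14%), 174 of them higher with UNC0638 (1.06%) and 13 lower (0.0793%), and 1298 genes had an adjusted p under 0.05 at any fold (7.92%), 633 of them higher. In the fit without pairing, 148 of the 174 and 11 of the 13 had an unadjusted p under 0.05 (5.21% and 3.5% of all genes in those directions). All 14 genes that DESeq2 called were among the 187. These fits share the 6 WT libraries and the 187 were chosen on them, so the overlap is no separate support. The count depended on the pairs: 231 genes were called without pair 1, 672 without pair 2 and 109 without pair 3. It depended on the libraries fitted too, since with the KO libraries added the same term gave 0 calls in limma. With these 12 libraries edgeR gave 2 (Usp17lb and Gm4340) and DESeq2 0. The 187 calls are therefore given below as calls of the paired fit.

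**Figure D1:**
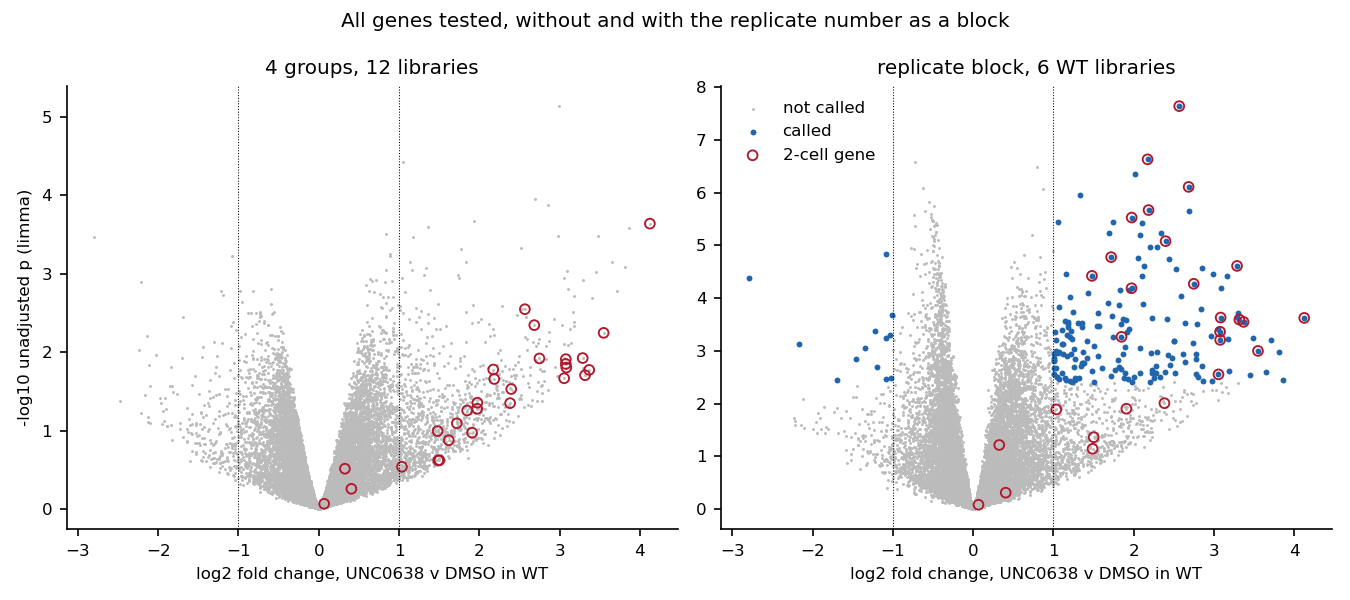
UNC0638 against DMSO in WT mESCs, with the log2 fold change on the x axis and -log10 of the unadjusted p on the y axis, for the fit of 4 groups over 12 libraries (left) and the fit with the replicate number as a term over the 6 WT libraries (right). Grey points were not called, blue points were called, red circles mark tested 2-cell genes and dotted lines mark 2-fold: no point is blue on the left, and 174 points to the right of 0 and 13 to the left are blue in the paired fit.

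Most genes of the EHMT complex differed by less than 2-fold, the exception being the zinc finger gene Zfp518a (log2 fold change 1.18, limma adjusted p = 0.566, groups overlapping). Of 16 listed genes 15 were tested, with a median log2 fold change of 0.14 (0.25 without DMSO replicate 1, all genes tested: -0.00), and 0 had an unadjusted p under 0.05 in limma. In 4 of the 15 the groups did not overlap in the higher direction (9.86% of all genes). Ehmt2 (ENSMUSG00000013787.15, mm10 chr17:34898469-34914052, plus strand), which encodes a catalytic subunit, had 499, 448 and 631 normalized counts in DMSO and 321, 409 and 461 in UNC0638. The treated libraries were lower in all 3 pairs but the groups overlapped, with a log2 fold change of -0.41 (SE 0.242, 95% CI -0.92 to 0.11, limma adjusted p = 0.589). Ehmt1, the partner subunit, gave -0.19, and Wiz, a zinc finger partner of the dimer, had 545, 557 and 545 normalized counts in DMSO and 537, 547 and 544 in UNC0638. Both therefore stayed within the spread between libraries. In the paired fit 4 members were higher below the 2-fold limit, namely Zfp462, Cbx5, Cbx1 and Rest, beside 633 of 16396 genes at that level. Cbx5, which encodes the H3K9 methyl reader HP1 alpha, had 6002, 7253 and 7091 normalized counts in DMSO and 9089, 9639 and 9393 in UNC0638, with no overlap (log2 fold change 0.47, adjusted p = 0.574 without pairing and 0.00539 in the paired limma fit). Zfp462, a zinc finger protein that binds the EHMT dimer, had 807, 667 and 690 in DMSO and 1065, 1180 and 1019 in UNC0638, again without overlap (log2 fold change 0.59, adjusted p = 0.566 without pairing and 0.0128 paired, limma).

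Factors upstream of the 2-cell programme lay on both sides of 0. Of 19 listed activators and repressors 18 were tested, 7 above and 11 below 0, with a median log2 fold change of -0.15 (-0.01 without DMSO replicate 3) and 1 gene at an unadjusted p under 0.05 in each direction (5.21% and 3.5% of all genes). The groups did not overlap in 4 genes in the higher and 2 in the lower direction (9.86% and 10% of all genes). Dppa2 had 767, 855 and 804 normalized counts in DMSO and 640, 739 and 666 in UNC0638, so that all treated libraries lay below all DMSO libraries (log2 fold change -0.25, limma adjusted p = 0.599). Dppa4 had 700, 868 and 920 in DMSO and 726, 775 and 772 in UNC0638, which overlap (-0.12, limma adjusted p = 0.925), and was at 0 in all 6 KO libraries. Dppa3, a maternal factor of the early embryo, was spread widely, with 38.4, 83.6 and 401 in DMSO and 26.4, 49.5 and 224 in UNC0638. It was lower with the inhibitor within each pair although the groups overlapped (-0.70, limma adjusted p = 0.775). Smarca5, the remodeller of the ISWI family, had 121, 185 and 203 normalized counts in DMSO and 280, 223 and 295 in UNC0638, without overlap (log2 fold change 0.67, adjusted p = 0.563 without pairing and 0.0556 paired, limma). Duxf3, the mouse Dux gene, was not among the genes tested.

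The promoters of Zscan4 genes are shown because this family is the best known mark of the 2-cell programme and its members lie in a cluster on chromosome 7. The 150 bases before the RefSeq start (GRCm38.p6) are given 5′ to 3′ on the strand of the gene, and capitals mark the letters TATAAA, searched on both strands.
Zscan4c, chr7:11005595-11005744, plus strand: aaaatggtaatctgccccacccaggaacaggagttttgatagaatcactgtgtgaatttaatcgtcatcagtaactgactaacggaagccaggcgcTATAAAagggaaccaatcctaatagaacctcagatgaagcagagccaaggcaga
Zscan4d, chr7:11166149-11166298, minus strand: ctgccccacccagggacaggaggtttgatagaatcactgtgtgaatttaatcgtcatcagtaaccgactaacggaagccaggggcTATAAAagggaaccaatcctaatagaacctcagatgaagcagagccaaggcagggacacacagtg
Zscan4f, chr7:11397765-11397914, plus strand: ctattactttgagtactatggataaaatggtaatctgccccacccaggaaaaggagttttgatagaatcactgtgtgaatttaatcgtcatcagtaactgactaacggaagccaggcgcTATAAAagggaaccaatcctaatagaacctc
The motif began 54, 65 and 31 bases before the start of Zscan4c, Zscan4d and Zscan4f. It was found in 2488 of 32851 promoters of the same length (7.57%), so it is not particular to these genes, and the match is a description of letters only. The coding genes are near copies too: between 13.0% and 77.4% of the 150-base windows of the Zscan4 transcripts occur in another gene, so reads of 1 copy can be counted for another.

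Summed as a list, the genes of the 2-cell embryo were higher with UNC0638 within each pair, from DMSO levels that differed between libraries. Of 47 listed genes 46 were in the table, 44 had a read in WT cells and 29 passed the filter on low counts. Summed over all listed genes, the DMSO libraries had 524, 1181 and 3985 normalized counts and the UNC0638 libraries 2361, 2936 and 15148. The sums overlapped between groups, because DMSO replicate 3 lay above UNC0638 replicates 1 and 2, although each treated library lay above the DMSO library of its number (exact permutation test, two-sided, p = 0.3). The median log2 fold change of the 29 tested genes was 2.18 (all genes tested: -0.00), and the medians within pairs 1, 2 and 3 were 2.87, 1.72 and 2.08. All 29 tested genes were above 0 (49.8% of all genes tested were), 26 of them at least 2-fold (5.82%). UNC0638 was higher in all 3 pairs in 24 of the 29 (22.4% of all genes). A gene can pass the filter through the group where it is high alone. Over the 44 genes with a WT read the median was 1.88, and 42 were above 0. Without the filter the median of all 28780 genes was 0.0989. In the fit without pairing 17 had an unadjusted p under 0.05, against 5.21% of all genes in that direction, and 0 were called. That fit takes its spread from the KO libraries too, where many of these genes had no read. Libraries at 0 add no spread, so these unpaired p-values tend to be too small beside those of all genes. In the paired fit 20 of 28 were called, against 1.06% of all genes. In 6 of the 29 the groups did not overlap in the higher direction, against 9.86% of all genes. The spread in DMSO was wide, since the highest library was a median of 12.4 times the lowest for these genes and 1.52 times for all genes tested. The median moved to 1.27 without UNC0638 replicate 3, to 1.39 without DMSO replicate 1 and to 3.18 without DMSO replicate 3.

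Zscan4 genes encode SCAN domain zinc finger proteins of the 2-cell embryo. Zscan4c (ENSMUSG00000054272.6, mm10 chr7:11005745-11010547, plus strand) had 31.4, 107 and 622 normalized counts in DMSO and 188, 221 and 1856 in UNC0638. The groups overlapped, while the folds within pairs were 6.00, 2.06 and 2.98. Its log2 fold change was 1.72 (SE 0.924, 95% CI -0.24 to 3.67), with an adjusted p of 0.574 without pairing and 0.00448 in the paired limma fit. KO libraries at 0 enter this SE and interval, which therefore understate the spread between the WT libraries. Zscan4d had 18.6, 62.7 and 210 in DMSO and 122, 170 and 1172 in UNC0638 (folds 6.57, 2.71 and 5.59, log2 fold change 2.18, adjusted p = 0.00235 in the paired limma fit). Zscan4f had 10.5, 59.0 and 361 in DMSO and 136, 196 and 1350 in UNC0638 (log2 fold change 2.40, adjusted p = 0.00314 in the paired limma fit). In both genes DMSO replicate 3 exceeded the first and second treated libraries. Over the 9 genes and pseudogenes of the family the sums were 171, 541 and 2658 in DMSO and 1032, 1395 and 9166 in UNC0638, with pair folds of 6.03, 2.58 and 3.45. In the paired fit 8 of the 9 were called (1.06% of all genes), but these copies share reads and are not separate counts. The 6 KO libraries had no read of the family.

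Usp17l genes encode deubiquitinases of the same stage. Usp17lb (ENSMUSG00000062369.2, mm10 chr7:104840257-104842603, minus strand) had 30.3, 77.5 and 216 normalized counts in DMSO and 227, 340 and 1421 in UNC0638. Here every treated library lay above every DMSO library, and the pair folds of 7.51, 4.39 and 6.58 were closer to each other than those of Zscan4c. The log2 fold change was 2.57 (SE 0.732, 95% CI 1.02 to 4.12), with an adjusted p of 0.563 without pairing and 3.73e-04 in the paired limma fit. The Usp17l genes summed to at most 4.37 in a KO library, so this interval too understates the spread between the WT libraries. Usp17le, another copy, also did not overlap, with 9.31, 35.7 and 101 in DMSO and 107, 164 and 580 in UNC0638 (log2 fold change 2.68, paired adjusted p = 0.00175, limma). Over the 5 genes the sums were 43.0, 209 and 564 in DMSO and 525, 828 and 3186 in UNC0638, and all 5 were called in the paired fit (1.06% of all genes). Between 0.754% and 36.1% of their 150-base windows are shared with another gene.

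Most other 2-cell genes had the same order within pairs. Gm4340, a member of a gene cluster on chromosome 10 (mm10 chr10:104194042-104196522), had 44.2, 94.7 and 546 normalized counts in DMSO and 318, 324 and 2093 in UNC0638 (pair folds 7.19, 3.42 and 3.83, log2 fold change 2.17, paired adjusted p = 0.00135, limma). The groups overlapped through DMSO replicate 3, and 90.1% of its windows are shared, so the value stands for the cluster rather than for the single gene. Zfp352, a zinc finger gene expressed at the 2-cell stage, had 0, 0 and 6.12 in DMSO and 16.7, 12.1 and 47.9 in UNC0638, without overlap (log2 fold change 3.55, paired adjusted p = 0.0267, limma). Gm2016 had 1.16, 19.7 and 131 in DMSO and 74.0, 99.0 and 731 in UNC0638 (log2 fold change 3.29, paired adjusted p = 0.00528, limma). The 12 Tdpoz and Spopfm genes, which encode MATH and BTB domain proteins, summed to 14.0, 12.3 and 66.4 in DMSO and 42.3, 63.5 and 244 in UNC0638. The 55 Obox homeobox genes and pseudogenes, none of which passed the filter, summed to 16.3, 14.8 and 122 in DMSO and 89.8, 95.3 and 418 in UNC0638. In both families the treated library was higher within each pair, and DMSO replicate 3 was the highest DMSO library. Not every listed gene followed: Zfp750 (log2 fold change 0.07), Arg2 (0.41) and the KRAB zinc finger gene Zfp809 (0.33) differed by less than the spread between libraries. Pramel7 was lower with UNC0638 in pair 2 (fold 0.25) and Pramef25 in pair 1 (fold 0.64), while both were higher in pair 3 (7.76 and 4.61).

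The genes called in the paired fit lay partly side by side. There were 3 runs of at least 4 consecutive tested genes that were all called higher, holding 20 genes: 7 genes on chromosome 10 (104142987 to 104196522) that end with Gm4340, 8 genes on chromosome 12 (87514316 to 88274500) from Gm8300 to Gm5662, and 5 genes on chromosome 7 (11161374 to 11614112) that include Zscan4d, Zscan4e and Zscan4f. No run was found in the fit without pairing, since it called 0 genes. The members of each run are similar in sequence and share reads, so the genes of a run are not independent of each other.

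**Figure D2:**
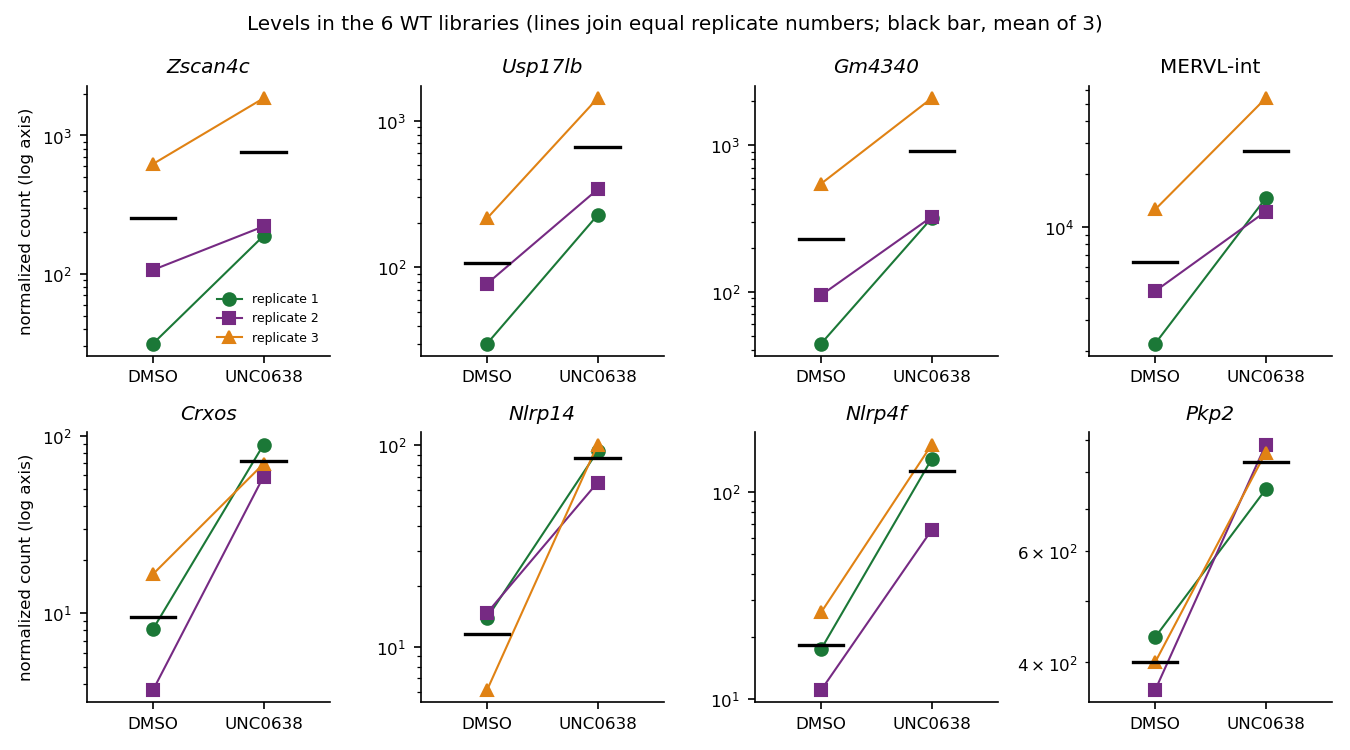
Normalized counts (log axis) of Zscan4c, Usp17lb, Gm4340, MERVL-int, Crxos, Nlrp14, Nlrp4f and Pkp2 in the 3 DMSO and 3 UNC0638 libraries of WT mESCs, with a line joining libraries of the same number and a black bar at the mean of 3 libraries. Zscan4c ran from 31.4 to 622 in DMSO and from 188 to 1856 in UNC0638, with the treated library higher in each pair and overlapping groups, while Crxos ran from 3.69 to 16.6 and from 58.9 to 88.9, with no overlap.

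A further group of genes was chosen after the values were seen. The 12 leading higher genes had the smallest unadjusted p (limma) among genes without overlap, 2-fold higher and averaging at least 20 normalized counts. Lack of overlap was thus a condition of entry, and a choice by small p favours a narrow spread. In these 12 the highest DMSO library was a median of 2.43 times the lowest (12.4 for the 2-cell genes, 1.52 for all genes). Crxos, annotated opposite the homeobox gene Crx (ENSMUSG00000074365.13, mm10 chr7:15882617-15904020, plus strand), had 8.14, 3.69 and 16.6 normalized counts in DMSO and 88.9, 58.9 and 69.5 in UNC0638. All treated libraries were far above every DMSO library. The log2 fold change was 2.99 (SE 0.465, 95% CI 2.01 to 3.97), with an adjusted p of 0.126 in limma without pairing, 0.00586 in the paired limma fit and 1.21e-05 in DESeq2. Reads of Crxos and Crx cannot be told apart where reads were counted without regard to strand, and the strand setting is not given in the sources used here. Pkp2 (mm10 chr16:16213318-16272712, plus strand), which encodes the desmosomal protein plakophilin, was the most abundant of the group, with 439, 362 and 400 in DMSO and 752, 885 and 860 in UNC0638. Its groups were tight and apart, with a log2 fold change of 1.06 (SE 0.189, adjusted p = 0.326 without pairing and 0.00235 paired, limma).

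NLR family genes expressed in oocytes were among these. Nlrp4f (mm10 chr13:65177111-65205977, minus strand) had 17.5, 11.1 and 26.2 normalized counts in DMSO and 144, 65.4 and 168 in UNC0638. Nlrp14 (mm10 chr7:107166990-107198102, plus strand) had 14.0, 14.8 and 6.12 in DMSO and 93.3, 65.4 and 101 in UNC0638. Neither gene overlapped between groups, and their log2 fold changes were 2.69 (SE 0.534) and 2.86 (SE 0.577), both with an adjusted p of 0.457 without pairing, and with 0.00235 and 0.0054 in the paired limma fit. Of 21 Nlrp genes 7 were tested, with a median log2 fold change of 0.36 and 4 of the 7 above 0. Of these 3 were higher at an unadjusted p under 0.05 (5.21% of all genes), 3 were called in the paired fit (1.06%), 3 did not overlap in the higher direction (9.86%) and 1 in the lower (10%). The family summed to 149, 230 and 184 in DMSO and 401, 319 and 527 in UNC0638. Pramel6, a PRAME family gene (mm10 chr2:87506565-87510872, plus strand), had 6.98, 0 and 0 in DMSO and 46.7, 38.3 and 21.6 in UNC0638, with every treated library above every DMSO library (log2 fold change 4.12, SE 0.879, paired adjusted p = 0.0135, limma). Nxf3, of the nuclear RNA export factor family, had 5.82, 0 and 3.50 in DMSO and 38.7, 38.3 and 26.3 in UNC0638 (log2 fold change 3.48, paired adjusted p = 0.0197, limma).

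Further leading genes, likewise chosen after their values were seen, were Gpx2, Gsta3, Cd38 and Aim2. Gpx2, a glutathione peroxidase, had 216, 180 and 454 normalized counts in DMSO and 488, 576 and 1010 in UNC0638 (log2 fold change 1.33, SE 0.328, paired adjusted p = 0.00204, limma), and Gsta3, a glutathione S-transferase, had 10.5, 28.3 and 23.6 in DMSO and 88.1, 72.9 and 69.5 in UNC0638 (1.94, SE 0.409, paired adjusted p = 0.0163, limma). Neither overlapped between groups. Cd38, an ectoenzyme that consumes NAD, had nearly equal DMSO libraries at 67.5, 66.4 and 67.3, against 230, 131 and 117 in UNC0638 (log2 fold change 1.17, SE 0.26, paired adjusted p = 0.0186, limma). Aim2, a sensor of cytosolic DNA, had 12.8, 27.1 and 69.1 in DMSO and 96.0, 123 and 188 in UNC0638 (2.13, SE 0.68, paired adjusted p = 0.00528, limma). In both genes all treated libraries were above all DMSO libraries, and Aim2 followed the order of the pairs.

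At the 2-fold limit of the paired fit fewer genes were lower than higher with UNC0638 (13 against 174), while at any fold 665 were lower and 633 higher at an adjusted p under 0.05 in limma. Ccl6 (mm10 chr11:83587882-83593087, minus strand), a CC chemokine gene, had 61.7, 93.5 and 79.5 normalized counts in DMSO and 16.7, 11.2 and 5.59 in UNC0638. The groups were far apart, with a log2 fold change of -2.79 (SE 0.621, 95% CI -4.11 to -1.48, adjusted p = 0.457 without pairing and 0.00624 paired, limma). Prrx2, a homeobox gene, had 89.6, 129 and 98.8 in DMSO and 39.6, 53.3 and 41.5 in UNC0638 (log2 fold change -1.22, paired adjusted p = 0.0168, limma). H19, an imprinted noncoding RNA, had 144, 155 and 270 in DMSO and 66.0, 79.4 and 139 in UNC0638 (-1.01, paired adjusted p = 0.0135, limma). For both, all treated libraries were lower than all DMSO libraries. Rpa3, a subunit of replication protein A, had 86.1, 71.3 and 63.8 in DMSO and 29.1, 32.7 and 32.7 in UNC0638 (-1.19, paired adjusted p = 0.0363, limma), and Alas1, the first enzyme of heme synthesis, had 116, 95.9 and 74.3 in DMSO and 37.0, 40.2 and 55.9 in UNC0638 (-1.09, paired adjusted p = 0.0466, limma). The class I antigen gene H2-K1 was below the 2-fold limit, with 268, 176 and 237 in DMSO and 136, 112 and 116 in UNC0638 (-0.88, paired adjusted p = 0.0158, limma).

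Riok1, which encodes an atypical kinase of ribosome maturation, stood apart from this pattern. It had 186, 98.4 and 177 normalized counts in DMSO and 4616, 4444 and 120 in UNC0638. Treated replicates 1 and 2 were thus far above DMSO and treated replicate 3 was not, with pair folds of 24.8, 45.2 and 0.67, so that the groups overlapped. In KO cells the order was the other way, with 400, 1397 and 826 in DMSO and 134, 495 and 134 in UNC0638, and the untreated KO libraries were themselves unequal. Its log2 fold change in WT was 3.18 (SE 0.972, adjusted p = 0.563 without pairing and 0.0392 paired, limma), and the call of the paired fit rests on replicates 1 and 2.

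Germ cell genes were higher as a list by a smaller amount. Of 65 listed genes 61 had a read and 33 were tested, with a median log2 fold change of 0.44 and pair medians of 0.41, 0.55 and 0.33. Of the 33, 4 had an unadjusted p under 0.05 in the higher and 0 in the lower direction (5.21% and 3.5% of all genes), 8 did not overlap between groups in the higher direction (9.86% of all genes), and 3 of 29 were called in the paired fit (1.06% of all genes). The median was 0.19 without UNC0638 replicate 3 and 0.24 without DMSO replicate 2. Tex19.2, a germ cell gene linked to retrotransposon control, had 12.8, 29.5 and 43.7 normalized counts in DMSO and 63.4, 105 and 125 in UNC0638 (log2 fold change 1.83, SE 0.529, paired adjusted p = 0.00801, limma). Xlr3a, a gene of the X-linked lymphocyte-regulated family, had 9.31, 1.23 and 1.75 in DMSO and 50.2, 21.5 and 30.3 in UNC0638 (3.05, SE 0.776, paired adjusted p = 0.0164, limma). Mageb4, a melanoma antigen family gene, had 12.8, 8.61 and 8.74 in DMSO and 44.0, 24.3 and 39.1 in UNC0638 (1.71, paired adjusted p = 0.044, limma). For these 3 genes every treated library was above every DMSO library, and the Xlr genes are close copies of each other. The 15 Xlr genes summed to 36.1, 16.0 and 24.5 in DMSO and 136, 43.9 and 111 in UNC0638.

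Genes of cholesterol synthesis and uptake split. Of 25 tested genes 6 had an unadjusted p under 0.05, all in the higher direction (5.21% of all genes), and the same number had an adjusted p under 0.05 in the paired fit below the 2-fold limit, beside 633 of 16396 genes. At the same time 11 of the 25 were below 0, and the median was 0.20 (0.065 without DMSO replicate 1 and 0.081 without UNC0638 replicate 2). Stard4, a sterol carrier, had 368, 394 and 377 normalized counts in DMSO and 793, 645 and 607 in UNC0638 (log2 fold change 0.83, paired adjusted p = 0.00586, limma). Every treated library was above every DMSO library. Idi1, an isomerase of isoprenoid synthesis, had 216, 339 and 295 in DMSO and 567, 421 and 515 in UNC0638, again without overlap (0.83, paired adjusted p = 0.0227, limma). Cyp51, Msmo1 and Hmgcs1, further enzymes of sterol synthesis, were also among them.

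Naive pluripotency genes stayed near level, with a median of -0.03 over 23 tested genes, and 4 of them were at an unadjusted p under 0.05 in the lower direction (3.5% of all genes). The median had no fixed sign, with 0.071 without DMSO replicate 1 and -0.16 without DMSO replicate 3. Pou5f1, the core pluripotency factor OCT4, had 11089, 9569 and 12960 normalized counts in DMSO and 7806, 7569 and 9622 in UNC0638. It was lower within each pair with a small overlap between groups (log2 fold change -0.42, adjusted p = 0.563 without pairing and 0.00618 paired, limma). Utf1, a chromatin protein of pluripotent cells, had 4561, 4624 and 5351 in DMSO and 3010, 3621 and 3948 in UNC0638, without overlap (-0.46, paired adjusted p = 0.00807, limma). Klf2 and Dppa5a were the other 2, and the nuclear receptor gene Nr5a2 was the 1 higher gene at that level (log2 fold change 0.55). Among primed epiblast genes (24 tested, median 0.01) Lefty2, an inhibitor of Nodal signalling, had 1193, 1251 and 628 in DMSO and 2198, 2141 and 1230 in UNC0638. It was higher within each pair, with a small overlap (0.88, paired adjusted p = 0.00175, limma).

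The other gene lists gave medians between -0.19 and 0.21, beside -0.00 for all genes. The ATF4 targets were the lowest at -0.19, with 21 of 25 tested genes below 0 (8660 of 17258 genes) and 0 at an unadjusted p under 0.05. In 6 of the 25 the groups did not overlap in the lower direction and in 0 in the higher (10% and 9.86% of all genes). UNC0638 was lower in all 3 pairs in 12 and higher in 1 (24.7% and 22.4% of all genes). In the paired limma fit 4 were lower and 0 higher at an adjusted p under 0.05, beside 665 and 633 of 16396 genes. Clustered protocadherins followed at -0.17 with 11 of 12 below 0, and lysosome and autophagy genes at -0.11. Feeder fibroblast genes were also at -0.12, with 17 of 25 below 0. Neuroectoderm genes were the highest at 0.21, followed by primitive endoderm at 0.20 and fatty acid and LXR genes at 0.18. H3K9 methyltransferases and readers, H3K9 demethylases, mesendoderm, trophoblast, p53 target, interferon response, imprinted, immediate early and mitochondrially encoded genes had medians of 0.15, 0.09, 0.11, 0.09, -0.00, -0.07, 0.09, -0.06 and 0.15. On omission of single libraries neuroectoderm ranged from 0.044 (without UNC0638 replicate 2) to 0.51 (without UNC0638 replicate 1), primitive endoderm from 0.072 (without DMSO replicate 3) to 0.34 (without DMSO replicate 1), fatty acid and LXR from 0.080 (without UNC0638 replicate 2) to 0.28 (without UNC0638 replicate 3), ATF4 targets from -0.33 (without DMSO replicate 2) to -0.18, protocadherins from -0.21 to -0.062 (without UNC0638 replicate 3) and feeder genes from -0.29 (without UNC0638 replicate 2) to -0.054 (without UNC0638 replicate 1). The medians of H3K9 demethylases, mesendoderm, trophoblast, p53 target, interferon, imprinted, immediate early and primed epiblast genes took either sign, so the order of these lists is not fixed. In none of these lists were more than 3 genes at an unadjusted p under 0.05 in a direction. Among trophoblast genes Plet1, a placental surface protein, was called in the paired fit, with 36.1, 46.7 and 21.9 normalized counts in DMSO and 119, 64.5 and 82.2 in UNC0638 (log2 fold change 1.34, adjusted p = 0.0361, limma). It has an antisense neighbour, and reads of the pair cannot be told apart without strand. Among imprinted genes Igf2r, the receptor that clears IGF2, had 332, 342 and 330 in DMSO and 609, 594 and 410 in UNC0638, without overlap (0.66, paired adjusted p = 0.0207, limma).

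**Figure D3:**
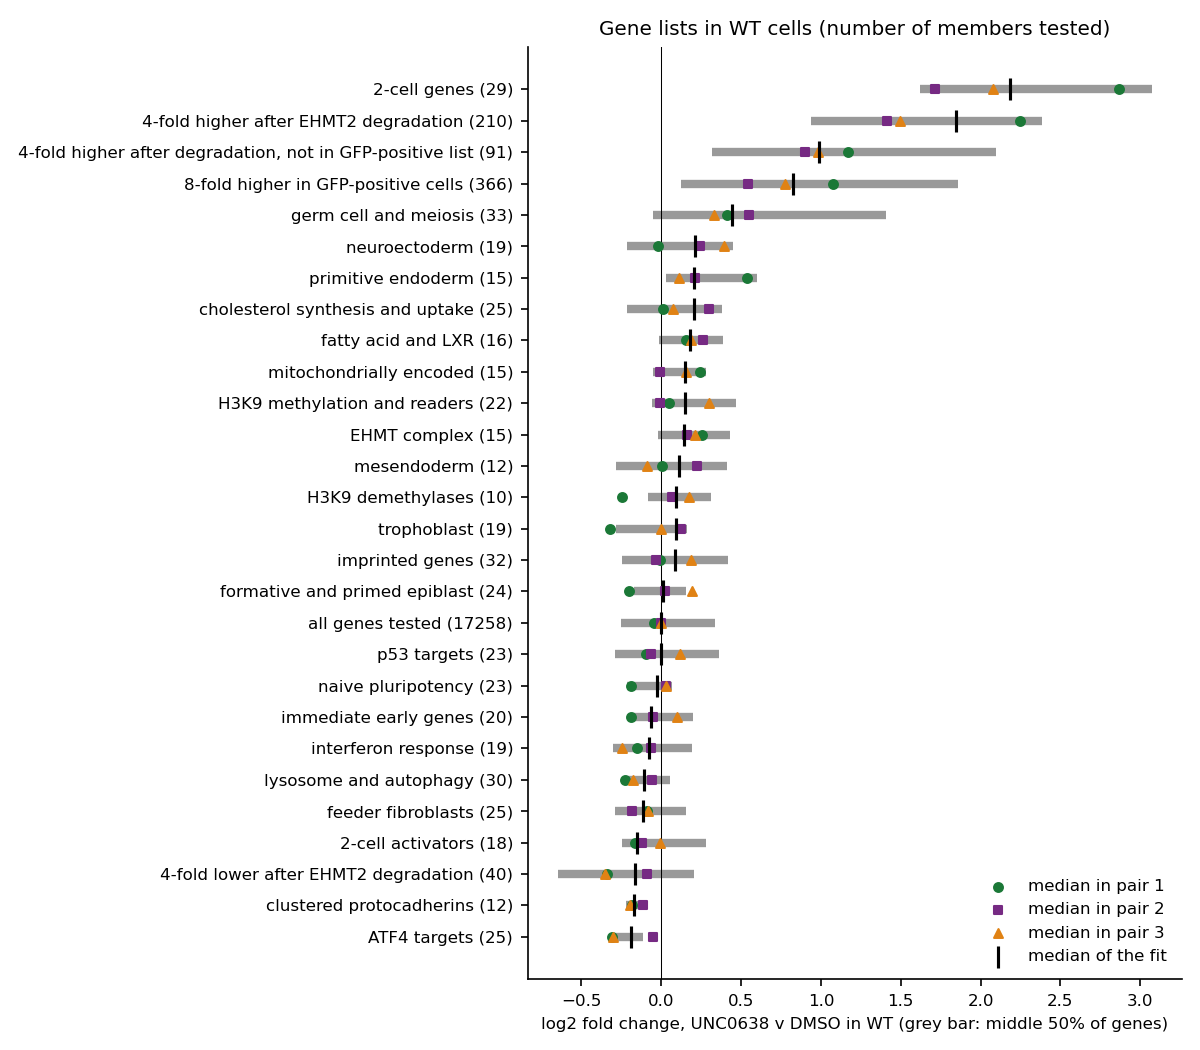
Log2 fold changes of UNC0638 over DMSO in WT mESCs for the tested members of each gene list, with a grey bar for the middle 50% of genes, a black tick for the median of the fit and points for the medians within pairs 1, 2 and 3; n is the number of genes tested. The 2-cell genes sit at 2.18 and the other functional lists between -0.19 and 0.44, while genes at least 4 times higher after EHMT2 degradation sit at 1.84.

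Genes that are higher when EHMT2 is degraded were compared under the inhibitor, where 0 were called without pairing and 78 of 204 in the paired fit (1.06% of all genes). The list came from the authors' group means in degron-tagged cells, which carry no replicates here: 386 genes had a mean at least 4 times higher with the degrader than with DMSO at 24 h or 7 d. Of these 376 had a read in WT cells and 210 were tested, with a median log2 fold change of 1.84 under UNC0638 and pair medians of 2.25, 1.41 and 1.50. Over the 376, without the filter on low counts, the median was 1.64 and 348 were above 0. Of the 210, 94 were at an unadjusted p under 0.05 in the higher and 0 in the lower direction (5.21% and 3.5% of all genes), and 59 did not overlap between groups in the higher direction (9.86% of all genes). Their sums were 6523, 9039 and 16316 in DMSO and 14230, 15809 and 43571 in UNC0638, so DMSO replicate 3 lay above UNC0638 replicates 1 and 2, as for the 2-cell genes. Much of the list is shared with the genes of 2CLCs: when genes at least 8 times higher in GFP-positive than in GFP-negative cells of a MERVL-GFP reporter line (the sorted 2CLCs and mESCs of the series) were left out, 128 genes remained, of which 91 were tested. These had a median of 0.99 and pair medians of 1.17, 0.90 and 0.98, with 35 at an unadjusted p under 0.05, all higher, and 36 without overlap in the higher direction (5.21% and 9.86% of all genes). Their sums, 4585, 6064 and 5504 in DMSO and 6601, 7924 and 7678 in UNC0638, did not overlap. The genes at least 4 times lower after degradation were near level, with a median of -0.16 over 40 tested genes and 2 at an unadjusted p under 0.05 in each direction (5.21% higher and 3.5% lower of all genes). The GFP-positive list itself, 1135 genes of which 366 were tested, had a median of 0.83, with 79 higher and 1 lower at an unadjusted p under 0.05 (5.21% and 3.5% of all genes). For members of these lists without a KO read the unpaired p-values tend to be too small, as for the 2-cell genes. Over its 1005 genes with a WT read the median was 0.68. The degradation list held 78 of the 174 genes called higher in the paired fit (44.8%), which are 38.2% of its 204 members in that fit.

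Repeats took a larger share of reads with UNC0638. Repeat families held 3.49%, 3.76% and 3.78% of reads in DMSO and 5.48%, 4.20% and 5.99% in UNC0638, with means of 3.67% and 5.23%. Every treated library was above every DMSO library (exact permutation test, two-sided, p = 0.1, the smallest that 3 against 3 allows, 1 of 13 library measures so tested). Replicate 2 was the treated library closest to DMSO. Without MERVL and MT2_Mm the repeats summed to 372328, 398139 and 420456 normalized counts in DMSO and 533812, 411131 and 585167 in UNC0638, and then replicate 2 of UNC0638 lay within the DMSO range.

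Of 1146 repeat families 1072 had a read and 782 were tested, with a median log2 fold change of 0.43 and pair medians of 0.58, 0.12 and 0.49. The fit without pairing called 0 (0%), with the lowest adjusted p at 0.118, and 86 families were at an unadjusted p under 0.05 (11%), 85 higher (10.9%) and 1 lower (0.128%). edgeR and DESeq2 called 0 as well, with 84 and 97 families at an unadjusted p under 0.05. Most families were higher: 685 of 782 had a log2 fold change over 0 (87.6%), 381 were higher in all 3 pairs (48.7%), and in 214 all treated libraries lay above all DMSO libraries (27.4%), against 4 below (0.512%). The paired fit of the WT libraries called 5 of 721 families (0.693%), of which MERVL-int, MT2_Mm, RLTR45-int and ORR1E-int were higher (0.555%) and RLTR17B_Mm was lower (0.139%). With the 12 libraries the paired fit called 3 of 782 (0.384%), MERVL-int, MT2_Mm and MURVY-int, all higher. Replicate numbers paired repeats less clearly than genes, and without pair 2 the paired fit called 43 families. Without DMSO replicate 3 the unpaired fit called 4 families (MERVL-int, MT2_Mm, MURVY-int and RLTR45-int), and without KO DMSO replicate 3 or KO UNC0638 replicate 2 it called 1, RLTR45-int.

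MERVL-int, the internal part of the retrovirus that marks the 2-cell stage, had 2199, 4355 and 12607 normalized counts in DMSO and 14593, 12274 and 53609 in UNC0638. Only DMSO replicate 3 reached the treated range, and the pair folds were 6.64, 2.82 and 4.25. The log2 fold change was 2.10 (SE 0.526, 95% CI 1.02 to 3.19), with an adjusted p of 0.152 without pairing, 3.54e-04 in the paired fit of WT libraries and 0.0212 in the paired fit of 12 libraries (limma). DESeq2 without pairing gave 2.07 with a larger SE of 0.787. MT2_Mm, its long terminal repeat, had 375, 632 and 1674 in DMSO and 1358, 1240 and 5702 in UNC0638, which again overlap through DMSO replicate 3 (1.53, SE 0.468, adjusted p = 0.31 without pairing and 0.00108 paired, limma). The median of both moved between 1.13 without UNC0638 replicate 3 and 2.45 without DMSO replicate 3. RLTR45-int, an internal sequence of the ERVK class, did not overlap, with 123, 145 and 191 in DMSO and 548, 395 and 879 in UNC0638 (pair folds 4.44, 2.72 and 4.59, log2 fold change 1.92, SE 0.441, adjusted p = 0.118 without pairing and 3.54e-04 paired, limma). MURVY-int, a retroviral family named for its copies on the Y chromosome, had 1.16, 0 and 16.6 in DMSO and 66.0, 18.7 and 50.3 in UNC0638 (3.60, adjusted p = 0.118 without pairing and 0.0501 paired, limma). ORR1E-int of the MaLR class had 55.8, 66.4 and 62.9 in DMSO and 164, 133 and 149 in UNC0638 (1.25, paired adjusted p = 0.0484, limma). Neither of these overlapped between groups. The lower family, RLTR17B_Mm, varied much more than it differed, with 12475, 4531 and 2147 in DMSO and 3098, 3505 and 418 in UNC0638 (unadjusted p = 0.291 without pairing, paired adjusted p = 0.0389, limma).

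Other abundant families differed by less. L1Md_A, a young LINE-1 family, had 5691, 11011 and 10643 normalized counts in DMSO and 15432, 8178 and 22980 in UNC0638 (log2 fold change 0.71, limma adjusted p = 0.47), and MMETn-int, of the ETn elements, had 45530, 70499 and 86165 in DMSO and 98030, 73321 and 133135 in UNC0638 (0.60, limma adjusted p = 0.47). Treated replicate 2 lay within the DMSO range in both. IAPEz-int, the internal part of the IAP retroviruses, had overlapping groups, with 13490, 8189 and 8278 in DMSO and 11741, 7861 and 9314 in UNC0638 (-0.03, 95% CI -0.68 to 0.62). The class medians were 0.56 for LINE (131 families), 0.43 for LTR (476), 0.39 for DNA (124) and 0.24 for SINE (35), with 27, 47, 11 and 0 families higher at an unadjusted p under 0.05 (10.9% of all families). The share of LINE families was above that background, and the shares of the other classes named were below it. By list, LINE-1 families had a median of 0.57, ETn and other ERVK 0.59, other ERVL and MaLR 0.34, IAP 0.33, ERV1 0.21, SINE 0.23 and satellites 0.52 (3 tested), beside 0.43 for all families. On omission of single libraries the medians ranged from 0.36 (without UNC0638 replicate 3) to 0.86 (without UNC0638 replicate 2) for LINE-1, from 0.33 (without DMSO replicate 1) to 0.88 (without DMSO replicate 3) for ETn and other ERVK, from 0.20 (without UNC0638 replicate 3) to 0.38 for IAP, from 0.088 (without UNC0638 replicate 3) to 0.44 (without UNC0638 replicate 2) for ERV1 and from 0.24 (without DMSO replicate 1) to 0.72 for satellites. In each of these classes the median of pair 2 was the lowest of the 3 pairs.

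**Figure D4:**
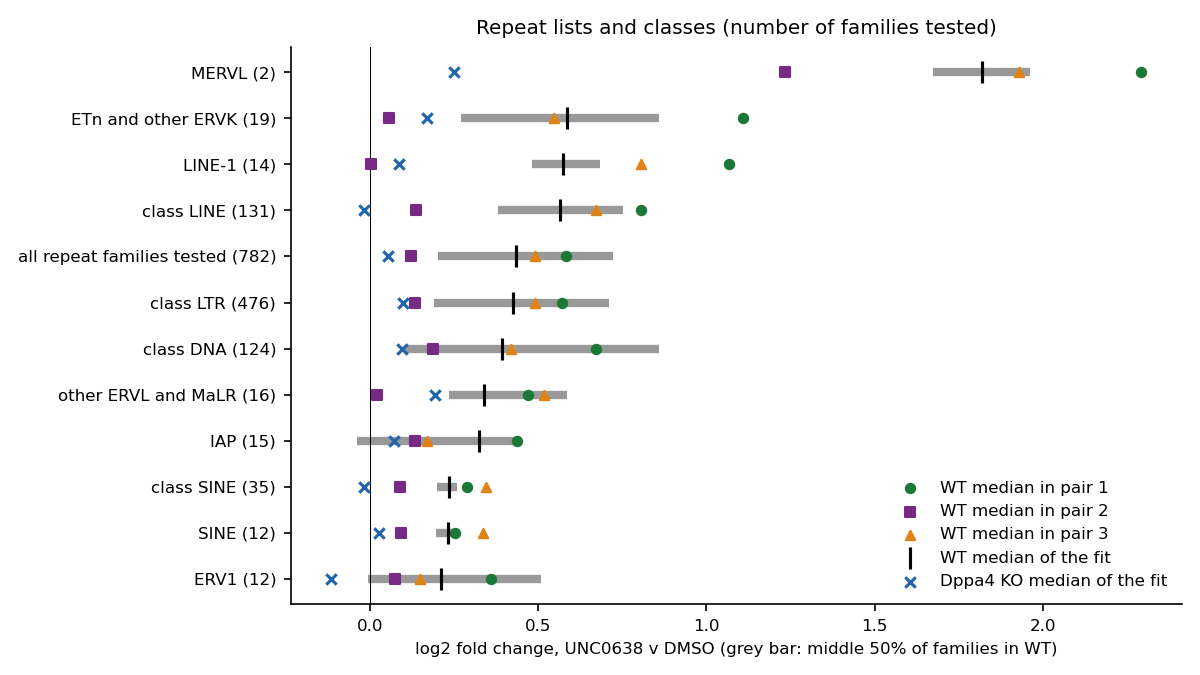
Log2 fold changes of UNC0638 over DMSO for the tested members of each repeat list and class in WT mESCs, with a grey bar for the middle 50%, a black tick for the median of the fit, points for the medians within pairs 1, 2 and 3, and a blue cross for the median in KO cells. MERVL stands at 1.82 and the other lists between 0.21 and 0.59, with pair 2 near 0 for most lists.

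The KO libraries allow a test of whether the effect differed between lines. The test of the difference (KO minus WT) called 0 of 17258 genes (0%), with 1076 at an unadjusted p under 0.05 (6.23%) and a lowest adjusted p of 0.775, and 0 of 782 repeat families (0%), with 42 at an unadjusted p under 0.05 (5.37%). edgeR and DESeq2 also called 0 genes, with 1042 and 1199 at an unadjusted p under 0.05, and 0 families, with 36 and 44. Without WT UNC0638 replicate 3 limma called 1 gene, Riok1. With the replicate number as a term over 12 libraries limma and edgeR called 0 genes and DESeq2 10 (1499 at an unadjusted p under 0.05), Riok1 among them. In the fits of all 12 libraries without pairing, no gene or family was called as differing between the lines. In KO cells alone 71 genes were called higher (0.411%) and 9 lower (0.0521%). Of the 71, 65 were above 0 in WT (49.8% of all genes), 27 at least 2-fold (5.82%), and 37 did not overlap between the WT groups in the higher direction (9.86%).

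The 174 genes called higher in the paired WT fit fell into those with and without reads in KO cells. In 41 of them the 6 KO libraries had no read. These had a median log2 fold change of 2.34 in WT, all 41 were in the GFP-positive list, 16 were 2-cell genes, and 5 did not overlap between the WT groups. The other 133 had a KO read and a median of 1.69 in WT. Of these, 32 were in the GFP-positive list, 4 were 2-cell genes and 103 did not overlap between the WT groups. In KO 22 of them were called higher (0.411% of all genes). Of all genes tested 9.86% did not overlap in the higher direction in WT, and 340 of 16396 genes of the paired fit were in the GFP-positive list. The 174 were chosen for their difference in these WT libraries, so lack of overlap in WT follows in part from the choice. Summed 2-cell genes were at 465, 419 and 613 in KO DMSO and 512, 583 and 263 in KO UNC0638, which overlap and lie below the WT UNC0638 range. MERVL-int was at 952, 644 and 1006 in KO DMSO and 1244, 1407 and 444 in KO UNC0638, with a difference of the effects of -1.99 (unadjusted p = 0.0135, adjusted p = 0.774, limma). The repeat share of reads differed by -0.03 percentage points between KO UNC0638 and KO DMSO (exact permutation test, two-sided, p = 1), and the test of its difference from WT gave p = 0.22 (permutation within lines).

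The leading WT genes had values in KO that can be set beside them. Crxos had 11.7, 21.4 and 10.4 normalized counts in KO DMSO and 109, 126 and 141 in KO UNC0638, and was called there (log2 fold change 3.08, limma adjusted p = 0.0124). Pkp2 and Nlrp4f were called in KO as well, at 1.35 (limma adjusted p = 0.00863) and 3.07 (limma adjusted p = 0.0232), as was Gpx2 at 2.24 (limma adjusted p = 0.012). Nlrp14 had no read in KO DMSO and 20.2, 57.0 and 20.1 in KO UNC0638, and Pramel6 had none in KO DMSO and 21.2, 109 and 28.8 in KO UNC0638. These genes were thus higher with UNC0638 in both lines. Cd38 was not, at a log2 fold change of -0.05 in KO (difference of the effects -1.22, unadjusted p = 0.00419), and Rpa3 was at 0.85 in KO against -1.19 in WT (difference 2.05, unadjusted p = 3.51e-04). Neither difference passed the adjustment over all genes.

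**Figure D5:**
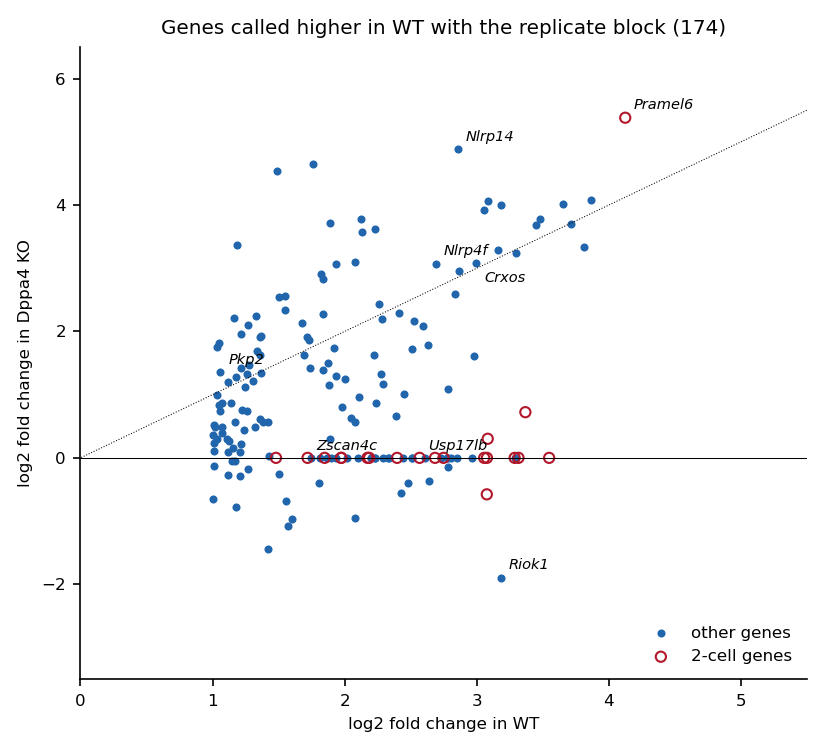
Log2 fold change of UNC0638 over DMSO in WT mESCs (x axis) and in KO mESCs (y axis) for the 174 genes called higher in the paired fit of the WT libraries, with a dotted line where both are equal. The 41 genes without a KO read lie at 0 on the y axis, and 22 of the other 133 were called higher in KO (0.411% of all genes).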

How the data were processed

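Polyadenylated RNA of WT J1 and Dppa4 KO mESCs was sequenced by the authors in 12 libraries, 3 per line and agent, and the 6 WT libraries are described here. The authors used Trim Galore (0.6.7) for trimming, aligned reads to mm10 with STAR (2.7.10) without introns, placed reads that fit many sites at a single random site, counted GENCODE vM25 genes and repeat families with TEcounts, and divided the counts by DESeq2 (1.34.0) size factors. Values of multi-copy families and repeats are therefore uncertain at the single copy. The strand option of the counting is not given in the sources used here. The deposited signal values are these normalized counts, and 100% of them came out as whole reads after multiplication by the size factor (relative tolerance 1e-06). Further deposited tables hold the authors' fold changes and p-values, which were not used, and the authors' deposited group means (signal values too), which gave the degradation and GFP-positive lists (higher mean at least 20).

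Genes and repeats that passed the edgeR filter on low counts (17258 of 55401 and 782 of 1146) were tested in limma (3.58.1, trended prior variance, log2 scale after adding a pseudocount of 1, so folds of low genes are understated) under R 4.3.3, with 4 group means over 12 libraries and Benjamini-Hochberg adjustment over genes and repeats apart. A call needed an adjusted p under 0.05 and a 2-fold difference. edgeR (4.0.16) and DESeq2 (1.42.0) on the recovered reads, pseudocounts of 0.5 and 5, other filters and scalings, the WT libraries alone, the replicate number as a term, and the omission of each library were alternatives. The paired edgeR and DESeq2 fits and the omission of pairs were chosen after seeing the data. The script was checked on simulated data. No pair of libraries was identical, and 0 columns lacked a sample.

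Deviations from the group means over genes correlated between same-numbered WT libraries at 0.246, 0.103 and 0.431, each the highest for its number and above the limit of 0.1, while KO gave 0.154, -0.0923 and 0.0129 and WT repeats 0.0550, -0.0136 and 0.207. The pairing comes from these correlations, since the labels tie no number to a clone. The members and lists were chosen with earlier results of these data known. By rule the text names called genes, all members of the 2-cell, activator, EHMT and MERVL lists as they bear on a result, and up to 6 members of other lists with the smallest adjusted p. Since the unpaired fit called none, the leading genes were chosen after their values were seen, and were taken from genes without overlap between groups. Positions are from GENCODE M21 (GRCm38, 55141 of 55401 IDs matched) and promoters from RefSeq (GRCm38.p6). Depth was 8399885 to 12710949 gene reads per library, and with 3 libraries per group precision is set by the spread between libraries rather than by counting.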

Additional observations from a re-analysis of the deposited data

How the results depend on the processing

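Under other pseudocounts, filters and scalings and under edgeR the WT comparison gave 0 called genes and 0 called repeat families, as it did without a fold limit. DESeq2 called 14 genes and 0 families, and the WT libraries alone gave 0 genes and 1 family (RLTR45-int). With the replicate block, calls were 187 genes and 5 families for the 6 WT libraries, 0 genes and 3 families for 12 libraries in limma, 2 and 2 in edgeR, and 0 and 3 in DESeq2. Omission of single libraries gave 0 to 1 genes and 0 to 4 families, and omission of pairs from the block of WT libraries gave 109 to 672 genes and 4 to 43 families. The KO minus WT difference had 0 calls in the fits tried, except 10 genes in DESeq2 with the replicate block and 0 to 1 genes on omission of single libraries. The median of the 2-cell genes ranged from 1.27 to 3.18 and that of MERVL from 1.13 to 2.45 on omission of single libraries. Of 8102 fits of 325 named genes and repeats under alternatives, 69 changed sign with p over 0.05 in both fits. A further 95, in 65 named genes or repeats, passed the threshold only in the alternative. The 0 reversals of a called value carry no weight, since the main fit called 0 genes and 0 families in WT. Without a filter on low counts the median log2 fold change of all 28780 genes was 0.0989. The cause of these shifts was not tested. The limits are 3 libraries per group, an estimate of spread shared with the KO libraries in the unpaired fit, and baselines of 2-cell genes that differ between DMSO libraries. Further limits are numbers not tied to clones, no dose in the labels, and reads of repeated genes that cannot be given to a single copy.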
